A study of Mus musculus with 130 samples.

Results

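The 80 mouse 2-cell embryos cultured with SR1848 were ranked by how much of an activation programme their RNA still held, and the 20 highest were set against the 20 lowest. The embryos were chosen by a score measured in the same libraries, the mean of log2(CPM+1), where CPM scales a gene's count to its library's total count, over 10 genes: Ncl, Nop56, Nop58, Imp4, Polr1e, Eif2s1, Psmb1, Psma3, Lsm8 and Polr2e. These 20 high and 20 low embryos, with the 40 between them (the high, low and middle sets), make up all 80 SR1848 embryos, and the 50 control embryos bring the series to 130. All came from zygotes of the strain B6129F1, taken at 5 hours post fertilisation (hpf). From 6 hpf the medium (KSOM, used in wet chambers with no oil layer) held either 10 uM SR1848 or, in the embryos whose titles read NT, 0.1% DMSO. Each library is the polyadenylated RNA of 1 whole 2-cell embryo, made by Smart-seq2 with oligo-dT priming. The series' design text counts 56 controls; the other 6 are not analysed here. Females, culture drops and plates are not named for single embryos, so p-values measure the spread between these embryos, which may be partly technical. In RNA of whole embryos a lower level in each cell and fewer cells that carry a transcript cannot be told apart.

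In the mouse, the embryonic genome is switched on in a minor wave in the zygote and a major wave at the 2-cell stage, while RNA stored in the oocyte is removed. Genes for making ribosomes, for translation, splicing and protein turnover are among the main targets of the major wave. Nr5a2 is an orphan nuclear receptor and pioneer factor for this activation, and SR1848 is a small molecule used to inhibit it.

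The score placed the SR1848 embryos on a continuous scale below the controls (the plot of scores in rank order). It ran from 4.16 to 4.99 (median 4.75) in the low set, from 5.00 to 5.52 (median 5.26) in the middle set and from 5.53 to 6.39 (median 5.71) in the high set. The controls ran from 7.54 to 8.59, with a median of 8.10. The limits between the sets fell in no gap: the highest low embryo stood at 4.989 and its neighbour in the middle set at 5.004, and the highest middle embryo at 5.52 beside the lowest high embryo at 5.53. The widest step between neighbouring SR1848 embryos was 0.30, against the 1.15 that separated the highest SR1848 embryo from the lowest control. Between the medians of the high and low sets lay 0.96, and between the high set and the controls a further 2.38. These values come from the ranking itself and were not tested.

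**Figure D1:**
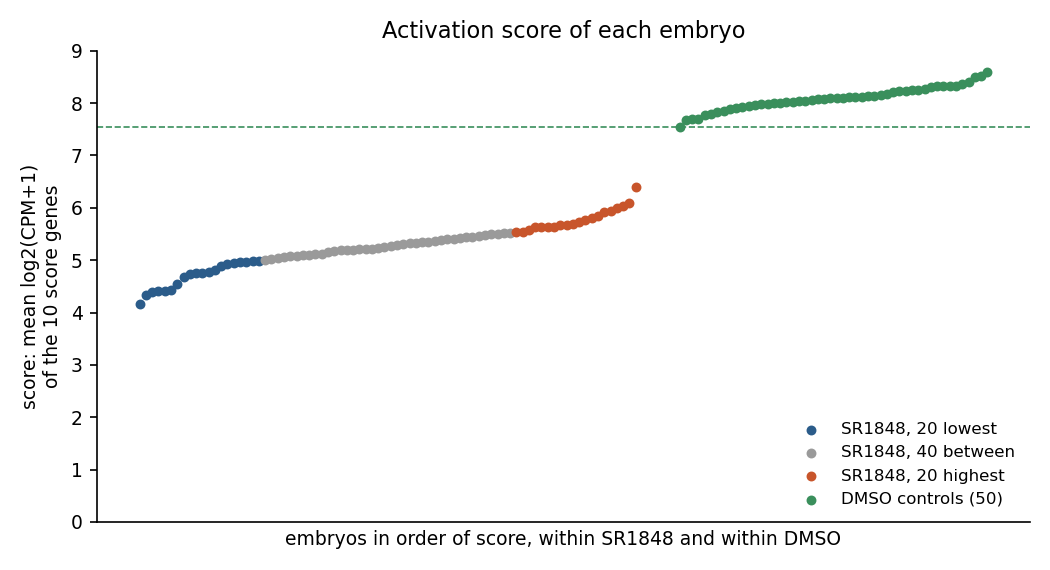
The score of each embryo (y axis, mean log2(CPM+1) of the 10 score genes) with embryos in rank order along the x axis, SR1848 embryos on the left coloured by set and DMSO controls on the right; the dashed line marks the lowest control at 7.54. The SR1848 embryos form a continuous series from 4.16 to 6.39 and none reaches the controls.

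Not all 10 genes carried the ranking alike. Psmb1, a subunit of the proteasome core, had a median of 11.3 CPM in the low set, 25.6 in the middle set, 45.04 in the high set and 270.3 in controls, and differed by 1.91 between high and low on the log2(CPM+1) scale. Nop58, a core protein of box C/D small nucleolar ribonucleoproteins, went from a median of 18.6 CPM in the low to 59.9 in the high set, a difference of 1.64, against 362 in controls. Lsm8 (1.37), of the ring bound to U6 small nuclear RNA, Polr1e (1.34), a subunit of RNA polymerase I, and Polr2e (1.32), shared by the nuclear RNA polymerases, were also over 2-fold higher. The differences were smaller for Nop56 (0.91), Psma3 (0.73), Ncl (0.47), Imp4 (0.45) and Eif2s1 (0.41). For 9 of the 10 genes no high embryo lay in the range of the controls.

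Nop56, the partner of Nop58, did not behave as a marker of missing activation. Its median was 309 CPM in the low set, 459 in the middle set and 581 in the high set but 305 in controls, and 14 of the 20 high and 18 of the 20 low embryos lay inside the control range. Across all 80 SR1848 and 50 DMSO embryos it was higher with SR1848 by 0.73 (log2, SE 0.10, adjusted p = 5.8e-11, edgeR quasi-likelihood test with Benjamini-Hochberg adjustment). The other 9 score genes were lower with SR1848 in the same test, by 1.54 (Ncl) to 4.25 (Polr1e) on the log2 scale. The score genes were chosen with earlier results of these data known, so for them this test is no separate support. Of 13164 genes tested, 6008 (45.6%) passed as higher and 4807 (36.5%) as lower with SR1848, so neither direction is rare.

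Over the other 10578 genes with a mean of at least 5 CPM, 2070 (19.6%) had a median at least 2-fold higher in the high set than in the low set, and 538 (5.09%) a median at least 2-fold lower. Among the 2070 the middle set's median lay between the other sets' in 1948 genes, and among the 538 in 512. The median gene differed by 0.07. These shares depend on what each library is scaled to: when each library was scaled by its summed oocyte transcripts and not by its total, the median of all genes moved to 1.38 and 98.8% of the 2-fold differences were on the higher side, against 79.4% with total counts and 71.8% with TMM library sizes. That scaling kept 13 of the 20 high and 14 of the 20 low embryos, and the distance from the highest SR1848 embryo to the lowest control shrank to 0.0425. Amounts per embryo, as opposed to shares of the library, cannot be told from these files.

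Libraries of the sets differed little in depth. Total counts had medians of about 4556280, 4580650 and 4624250 in the low, middle and high sets and 5423870 in controls, in a range of 2701208 to 8360748 over all embryos. Medians of genes detected were 15276, 15595, 15797.5 and 16168 in the same order. The share of counts on oocyte transcripts was 4.12% in the low, 3.55% in the middle and 2.89% in the high set, against 2.39% in controls. Mitochondrially encoded genes held 3.77%, 5.51%, 5.65% and 4.63%. Their part in the differences between the sets was not tested, beyond the ranking repeated at 1 thinned depth and without the shallowest libraries.

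Only 3 genes (0.0284%) had ranges that did not overlap between the high and low sets, all higher in the high set; they were chosen after their values were seen. Dppa4 is a DNA-binding partner of Dppa2 that is required for activation of Dux and of LINE-1 elements in embryonic stem cells (GRCm38 chr16:48283733-48294237, plus strand). Its lowest, median and highest levels were 0, 6.26 and 20.7 CPM in the low set, 2.84, 17.97 and 58.8 CPM in the middle set and 22.8, 39.5 and 74.05 CPM in the high set. Every high embryo was above every low one, and all were below the lowest control, since controls ran from 254 to 755 CPM with a median of 506. The median differed by 2.48 between high and low, with another 3.65 left to the controls. The separation of the Dppa4 ranges held with TMM library sizes but not under 8 other alternative settings, among them thinning, the oocyte scaling and either set of 5 score genes. The remaining 5 settings reused the same values or fewer of the same embryos and could not have ended it.

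Glrx3, a glutaredoxin of the cytosol that handles iron-sulfur clusters, is at GRCm38 chr7:137437614-137468594. It ran from 3.78 to 35.5 CPM (median 15.7) in the low set, from 8.41 to 83.8 (median 32.6) in the middle set and from 37.7 to 189.9 (median 62.2) in the high set. Controls lay between 75.2 and 263 CPM, and 6 of the 20 high embryos but no low embryo reached that range. Rps23, a protein of the small ribosomal subunit at the decoding centre (GRCm38 chr13:90922958-90924950), ran from 2.42 to 36.2 CPM (median 17.4) in the low and from 40.4 to 159 CPM (median 63.9) in the high set. Its controls had a median of 90.1 CPM, and 17 high embryos and no low embryo lay in their range of 51.5 to 185 CPM. Whether the ranges of Glrx3 and Rps23 stay apart under the alternative settings was not checked.

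The stretches just before the starts of Glrx3 and Rps23 are printed because their ranges did not overlap, and those of Ppat, Gabpa and Zfp42, described further on, because they are among the largest differences in their groups and hold a motif. Each gives the 120 bases before the RefSeq start, 5′ to 3′ on the gene's strand, on build GRCm38.p6. The RefSeq starts differ from the GENCODE gene bounds given here, so the stretches of Rps23 and Gabpa lie inside the GENCODE genes. Capitals mark TCAAGG, the half-site bound by Nr5a2, or CCGGAAG, the site of ETS factors such as Gabpa, on either strand.
Glrx3 promoter, chr7:137437453-137437572, plus strand: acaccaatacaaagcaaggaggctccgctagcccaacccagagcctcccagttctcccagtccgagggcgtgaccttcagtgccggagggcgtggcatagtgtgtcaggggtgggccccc
Rps23 promoter, chr13:90923002-90923121, plus strand: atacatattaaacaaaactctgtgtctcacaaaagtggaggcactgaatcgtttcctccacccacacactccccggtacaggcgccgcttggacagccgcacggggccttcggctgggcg
Ppat promoter, chr5:76951579-76951698, minus strand: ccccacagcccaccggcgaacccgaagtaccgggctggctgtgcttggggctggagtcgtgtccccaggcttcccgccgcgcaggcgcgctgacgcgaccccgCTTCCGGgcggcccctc
Gabpa promoter, chr16:84835004-84835123, plus strand: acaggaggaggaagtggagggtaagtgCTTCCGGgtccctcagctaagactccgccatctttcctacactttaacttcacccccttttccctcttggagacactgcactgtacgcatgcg
Zfp42 promoter, chr8:43307010-43307129, minus strand: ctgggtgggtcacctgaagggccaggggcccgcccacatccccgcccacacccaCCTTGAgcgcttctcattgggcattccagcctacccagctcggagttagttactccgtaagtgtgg
The stretches of Glrx3 and Rps23 do not hold these letters. The Zfp42 stretch holds the Nr5a2 half-site on the opposite strand, and those of Ppat and Gabpa the ETS letters on the opposite strand. Ppat also has TCAAGG further from its start than the stretch shown.

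In the 250 bases before the start, TCAAGG on either strand occurred in 12.5% of all 32851 promoters of the table and in 10.6% of the promoters of the genes described (8122 of 10578 matched by symbol). It occurred in 11.7% of the promoters of genes at least 2-fold higher in the high set and in 10.1% of those lower, so the half-site was about as frequent in each. CCGGAAG occurred in 6.91% of all promoters and 14.2% of those described, and in 15.4% and 9.35% of those of higher and lower genes. By list it was in 26.8% of 71 ribosomal protein promoters, 25.8% of 89 ribosome biogenesis promoters and 1.89% of 53 oocyte transcript promoters. The last motif, TGACGTCA, bound by CREB and ATF factors, was in 1.55% of all promoters, 2.61% of those described, 2.60% of the higher and 1.26% of the lower. These are descriptions of letters in a window.

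Nr5a2 itself (GRCm38 chr1:136842571-136960448, minus strand) followed the score. Its lowest, median and highest levels were 0.518, 4.31 and 16.1 CPM in the low set, 3.11, 13.5 and 32.8 CPM in the high set and 52.9, 105 and 196 CPM in controls. The median differed by 1.45 between high and low, 17 of the 20 high embryos were above the low median, and no SR1848 embryo reached the lowest control. Dppa2, the partner of Dppa4, went the other way when scaled to total counts: 73.8 CPM in the low, 54.6 in the middle and 49.9 in the high set, a difference of -0.56, with 367 CPM in controls. So the 2 partners, whose genes lie side by side on chromosome 16, did not move together across the ranking, although SR1848 embryos had less of both than controls in the test of all embryos (log2 -4.23, SE 0.18, adjusted p = 2.1e-48 for Dppa4 and -2.51, SE 0.12, adjusted p = 2.9e-44 for Dppa2, edgeR).

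Of 35 regulators of activation on a list of transcription and chromatin factors, 11 were at least 2-fold higher in the high set and none lower, with a median of 0.14. That is 31.4% higher against 19.6% of all genes and 0 lower against 5.09%, while the median lay near the 0.07 of all genes. The list's mean level had a median of 5.13 in the low set, 5.65 in the high set and 6.79 in controls, and all 20 high embryos were above the low median. Gabpa, an ETS factor, had the largest difference (2.78). It ran from 0 to 99.4 CPM (median 15.2) in the low set, from 5.26 to 156 CPM (median 47.8) in the middle set and from 17.2 to 409 CPM (median 110.1) in the high set. All 20 high embryos were above the low median, and none reached the controls, which lay between 435 and 1153 CPM. Crxos, an oocyte and early embryo homeobox gene, had medians of 23.1, 92.3 and 121 CPM in the low, middle and high sets and 438 CPM in controls, and 16 high embryos and no low embryo lay in the control range. Klf17, the most abundant member, was nearly flat at 946, 983 and 891 CPM.

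**Figure D2:**
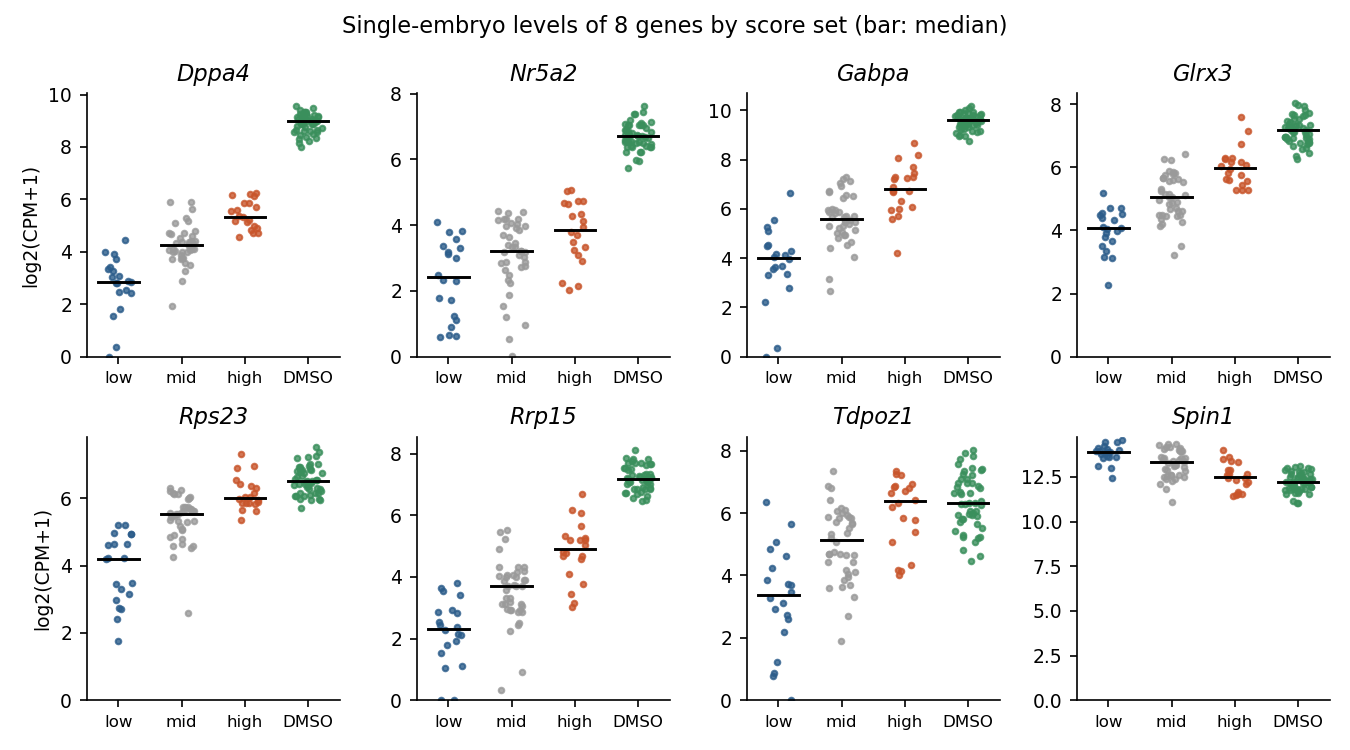
Levels of 8 genes in single embryos (y axis, log2(CPM+1)) in the low, middle and high SR1848 sets and the DMSO controls; each point is 1 embryo and the bar is the median. Dppa4, Nr5a2 and Gabpa step up from low to high but stay below the controls, Glrx3, Rps23 and Tdpoz1 reach into the control range, and Spin1 steps down from a median of 15336 CPM in the low set to 5859.6 CPM in the high set.

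Genes for building ribosomes stood out in the ranking, and 5 of the 10 score genes belong to that process. Of 96 ribosome biogenesis genes 94 passed the level filter, and 54 of them (57.4%) were at least 2-fold higher in the high set and 1 lower. Over all genes 19.6% were higher and 5.09% lower by that much. The list's median was 1.15 against 0.07 for all genes. The mean level of these 94 genes ran from 3.43 to 4.75 in the low and from 4.77 to 5.97 in the high set, against 6.55 to 7.55 in controls, so the sets did not touch the controls. Rrp15, needed for processing of the large subunit's RNA, had lowest, median and highest levels of 0, 3.997 and 13.1 CPM in the low set and 7.10, 29.4 and 103 CPM in the high set, with 88.2, 145 and 281 CPM in controls. All 20 high embryos were above its low median, and 1 lay in the control range. Pwp2 (2.83), of the small-subunit processome, and Polr1b (2.45), the second-largest subunit of RNA polymerase I, were the other members with the largest differences. Gtpbp4, a GTPase of large-subunit assembly and the most abundant member, behaved like Nop56, with medians of 1123, 1551 and 1718 CPM in the low, middle and high sets and 774 CPM in controls.

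The 81 ribosomal protein genes came closer to the controls than the genes that assemble ribosomes. Of these, 47 were at least 2-fold higher in the high set and none lower, with a median of 1.20. Their mean level had a median of 5.08 in the low set, 5.84 in the middle set, 6.07 in the high set and 7.01 in controls, and 9 of 20 high embryos but no low embryo lay in the control range. Rpl41 ran from 98.7 to 888 CPM (median 323) in the low set and from 475 to 2186 CPM (median 1201) in the high set. The controls had a median of 1211 CPM, and all 20 high embryos lay in their range. Rplp0, a protein of the ribosomal stalk and the most abundant member, passed the controls: its medians were 1183, 1663 and 1969.7 CPM in the 3 sets and 1231 CPM in controls. Relative to the median of all genes, the ribosomal protein and ribosome biogenesis lists kept a higher median also when scaled to oocyte transcripts, at 0.85 each. Estimated counts divide reads among near-identical copies, and ribosomal protein genes have many processed pseudogenes, so single values of this family are uncertain.

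Other housekeeping groups were higher in the high set by smaller amounts. The proteasome list had 15 of 39 members at least 2-fold higher and none lower (median 0.52), translation initiation 11 of 44 (median 0.45), splicing 17 of 56 (median 0.80), RNA polymerase II and its general factors 20 of 80 with 1 lower (median 0.34), and oxidative phosphorylation 23 of 69 (median 0.69). Chaperonin had 4 of 14 (28.6%), RNA polymerase III 5 of 21, tRNA synthetases 5 of 22 and G2 and mitosis 5 of 35 at least 2-fold higher and none lower. Over all genes 5.09% were at least 2-fold lower, a share that leaves few members to expect in lists this short. Against the 19.6% of all genes, translation initiation (11 of 44), RNA polymerase II (20 of 80), RNA polymerase III (23.8%) and tRNA synthetases (22.7%) lay close and G2 and mitosis (14.3%) below. For proteasome and tRNA synthetases the median relative to all genes came down to 0.06 and -0.02 with scaling to oocyte transcripts. No high embryo reached the controls in the mean level of proteasome, translation initiation, splicing, chaperonin, G2 and mitosis or either polymerase list.

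Psmb5, the chymotrypsin-like site of the proteasome, had lowest, median and highest levels of 0, 2.07 and 39.9 CPM in the low set, 0, 16.5 and 127 CPM in the middle set and 7.59, 38.4 and 104 CPM in the high set. Controls had a median of 119 CPM, and 4 high embryos and no low embryo lay in their range. Snrpa1, a U2 small nuclear ribonucleoprotein, had medians of 4.83, 16.6 and 32.5 CPM in the 3 sets and 186 CPM in controls, and all 20 high embryos were above the low median. Eif3m, a subunit of the translation initiation factor eIF3, differed by 2.53 and Polr2b, the second-largest subunit of RNA polymerase II, by 2.23. Uqcrq, a small subunit of respiratory complex III, was above the controls in the high set, with medians of 23.6 CPM in the low set, 93.9 CPM in the high set and 28.8 CPM in controls.

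Genes that SR1848 embryos held above the controls did not all move toward them in the high set. The list of 2-cell genes (Zscan4, Tcstv, Tdpoz and related transient genes) had 15 of 28 members (53.6%) at least 2-fold higher in the high set, against 19.6% of all genes. None was lower, against 5.09% of all genes, and the list's median was 1.09. In 15 members the middle set was at least 2-fold above the controls. Of these, 7 were at least 2-fold higher in the high than in the low set, while none was lower by that much. The mean level of the list had medians of 4.91, 5.65 and 5.91 in the low, middle and high sets and 4.48 in controls. Zscan4d had medians of 65.4, 150.4 and 189 CPM in the sets and 28.5 CPM in controls, and Tcstv3 121, 281 and 329 CPM and 17.2 CPM. Obox6, a homeobox gene of the 2-cell stage, lay instead below its controls, at 28.03, 92.8 and 113 CPM against 647 CPM. Tdpoz1, of the speckle-type BTB family, ran from 0 to 81.0 CPM (median 9.39) in the low set and from 15.1 to 162 CPM (median 82.3) in the high set, which matched the control median of 79.2 CPM. These families are near-identical copies whose reads the estimated counts divide.

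Immediate-early genes showed the same arrangement. Of 21 described, 11 (52.4%) were at least 2-fold higher in the high set, against 19.6% of all genes. None was lower, against 5.09% of all genes, and the list's median was 1.11. Of the 16 that lay at least 2-fold above controls in the middle set, 8 were at least 2-fold higher in the high than in the low set. Atf3, a stress-induced transcription factor, had lowest, median and highest levels of 0, 3.69 and 33.7 CPM in the low set and 0, 28.9 and 216 CPM in the high set. In controls its median was 0 CPM and its highest level 8.38 CPM, with 39 of 50 under 1 CPM. The stress response list had 12 of 27 members (44.4%) at least 2-fold higher (median 0.58) and heat shock 8 of 19 (42.1%, median 0.87), none lower in either. Hspa1a, the inducible heat shock protein, had medians of 86.1, 166 and 255 CPM in the 3 sets and 18.9 CPM in controls. The heat shock genes Hsph1 and Hsp90aa1 instead rose toward the controls. Hsph1 had medians of 29.9, 46.5 and 94.5 CPM against 195 CPM, and Hsp90aa1 241, 359 and 495 CPM against 721 CPM. Dnajb9, a chaperone cofactor of the endoplasmic reticulum, went toward the controls: 34.4, 128 and 279 CPM, against 1125 CPM in controls. Of 20 patterning factors described, 3 (15%) were at least 2-fold higher (median 0.29), below the 19.6% of all genes. Hes1, a Notch target and the most abundant of them, was level over the sets at 244, 212 and 199.8 CPM and had 5.53 CPM in controls.

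Most oocyte transcripts went in the opposite direction. Of 52 described, 9 were at least 2-fold lower in the high set and 3 (5.77%) higher, against 5.09% and 19.6% of all genes. Their median was -0.43, against 0.07 for all genes, and 38 had a lower median by any amount. The subcortical maternal complex and its relatives had 2 of 15 at least 2-fold lower and none higher (median -0.61), and 13 lower by any amount. The share of all genes lower by any amount was not counted. Scaled to the oocyte transcripts themselves, both list medians turn positive, at 0.40 and 0.38, but stay below the median of all genes by 0.98 and 0.99. Spin1, a reader of methylated histone H3 stored in the oocyte, ran from 5640.4 to 24153 CPM (median 15336) in the low set, from 2161 to 21197 CPM (median 10198) in the middle set and from 2777 to 16497 CPM (median 5859.6) in the high set. Controls had a median of 4689 CPM and a highest level of 8827 CPM, and 15 high embryos but 2 low embryos lay in their range. Bmp15, an oocyte growth factor, had medians of 1023, 449.7 and 365 CPM, and the high set met the controls at 375 CPM. Every one of the 20 high embryos was below its low median. Nlrp4f, of the maternal Nlrp family, had medians of 1076, 647 and 423 CPM and 275 CPM in controls. The oocyte transcripts Dcdc2c and Dppa5a went the other way, with differences of 1.56 and 1.46. Dcdc2c had medians of 85.5, 194 and 253 CPM in the 3 sets and 231 CPM in controls, and Dppa5a 101, 207, 281 and 427 CPM. For both, all 20 high embryos were above the low median.

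**Figure D3:**
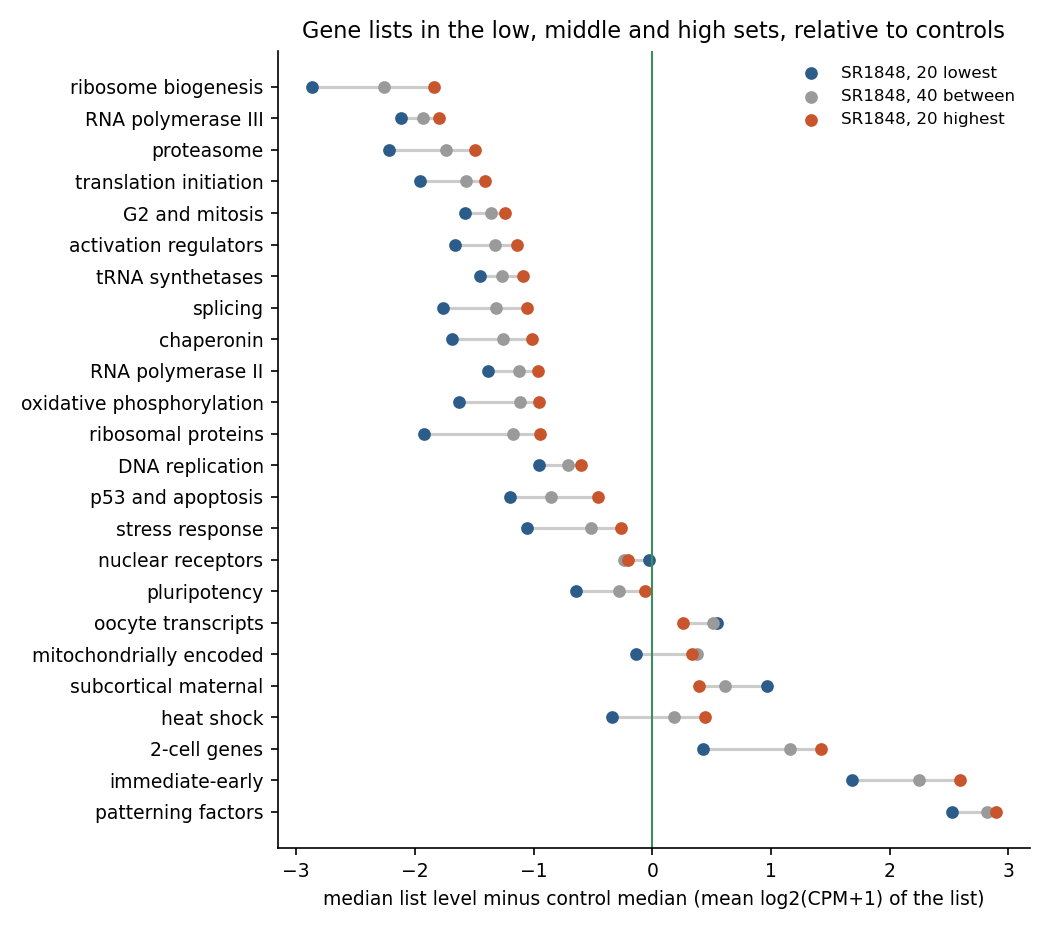
Median level of 24 gene lists in the low, middle and high SR1848 sets, as the difference from the control median (x axis, mean log2(CPM+1) over the list's genes; the vertical line at 0 is the control median). Most lists lie left of the controls and step toward them from low to high. Patterning factors, immediate-early and 2-cell genes lie right of the controls and step away from them. Oocyte transcripts and subcortical maternal genes lie right and step toward the controls, and heat shock and mitochondrially encoded genes cross the control line.

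The largest differences of single genes were in part on the X chromosome. Fthl17f (4.75), a testis and early embryo ferritin-like gene, Bex1 (4.72), Bclaf3 (3.799) and Fthl17c (3.77) were 4 of the 12 largest. Fthl17f was under 1 CPM in 7 of 20 low, 7 of 40 middle and 4 of 20 high embryos, and in 20 of 50 controls, and Bex1 in 10, 14, 5 and 17. Both thus held embryos without and with the transcript in every set, and their medians carry that mixture. Of 355 X-linked genes described, 27.9% were at least 2-fold higher and 8.45% at least 2-fold lower in the high set, both above the shares of all genes. Autosomes ranged from 14.4% to 24.2% higher.

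The other large differences were autosomal. Ppat, which starts purine synthesis, had lowest, median and highest levels of 0, 5.43 and 35.9 CPM in the low set and 9.59, 70.9 and 259 CPM in the high set, with 379, 626 and 859 CPM in controls. Outside the 12 largest, Zfp42 (Rex1), a pluripotency marker that differed by 3.16, had medians of 1.41, 9.43 and 20.2 CPM and 72.2 CPM in controls, and 18 high and 4 low embryos lay in the control range. With Ppat (3.48), Zfp566 (4.25), Psmb5 (3.68), Pheta1 (3.58), Syncrip (3.50), Pramel42 (3.45), Cybc1 (3.32) and Stk17b (3.26) completed the 12. On the lower side were Ap3s1 (-2.05), Tram1 (-1.93), Nlrp4g (-1.92), Sptssa (-1.91), Pls1 (-1.88), Pla2g4c (-1.83), Pcid2 (-1.83), Cdo1 (-1.82), Klhl13 (-1.81), Nlrp9a (-1.80), Tbc1d19 (-1.80) and Aco1 (-1.73). Scaled to oocyte transcripts, Ap3s1, Tram1, Pls1 and Aco1 turned to small positive values.

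How near the high set came to the controls was counted over all genes described. Of 3368 genes at least 2-fold lower in the middle set than in controls, 2696 (80.0%) had a median nearer to the controls' side in the high than in the low set, 1245 by at least 2-fold, and 43 moved away by that much. Their median distance below the controls was 2.46 in the low set, 2.03 in the middle set and 1.71 in the high set. The set median lay inside the control range for 1067 of these genes in the low, 1298 in the middle and 1667 in the high set. It reached or passed the control median in 10 genes of the high set. Of 1830 genes at least 2-fold higher in the middle set than in controls, 1170 were lower in the high than in the low set, 192 by at least 2-fold, but 251 were at least 2-fold further from the controls. Genes with no overlap with the controls numbered 934 for the low, 477 for the middle and 383 for the high set, though the middle set holds more embryos and so has wider ranges. These counts describe the sets and test nothing.

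Counted per embryo, a high embryo had 38.9% to 61.97% (median 47.9%) of the 3368 lower genes inside the control range, a middle embryo 32.1% to 47.6% (median 40.1%) and a low embryo 28.1% to 41.95% (median 34.1%). For the 1830 higher genes the medians were 64.2%, 59.7% and 55.9%. By the share of lower genes in range, SR1848 embryos 22 and 23 came first, at 61.97% and 61.7%, and they also had the highest scores, 6.39 and 6.09. The library of embryo 22 was unusual, with 17952 genes detected and 16991 after thinning. The highest controls had 16904 and 16099, and embryo 64 of the low set had 18118 before thinning. The part of this in its nearness to controls was not tested. Embryo 22 held 24.2 CPM of Nr5a2 and 74.05 CPM of Dppa4, and embryo 23 held 25.7 and 69.9 CPM, all below the lowest controls at 52.9 and 254 CPM. Over all genes described, the root mean square distance to the control median was 1.35 log2 units in embryo 22, 1.58 in embryo 16 (score 5.84) and 1.62 in embryo 23, the 3 smallest among the SR1848 embryos. It ran from 1.35 to 2.00 (median 1.76) in the high set, from 1.81 to 2.44 (median 2.02) in the low set and to 1.02 at most among the controls.

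**Figure D4:**
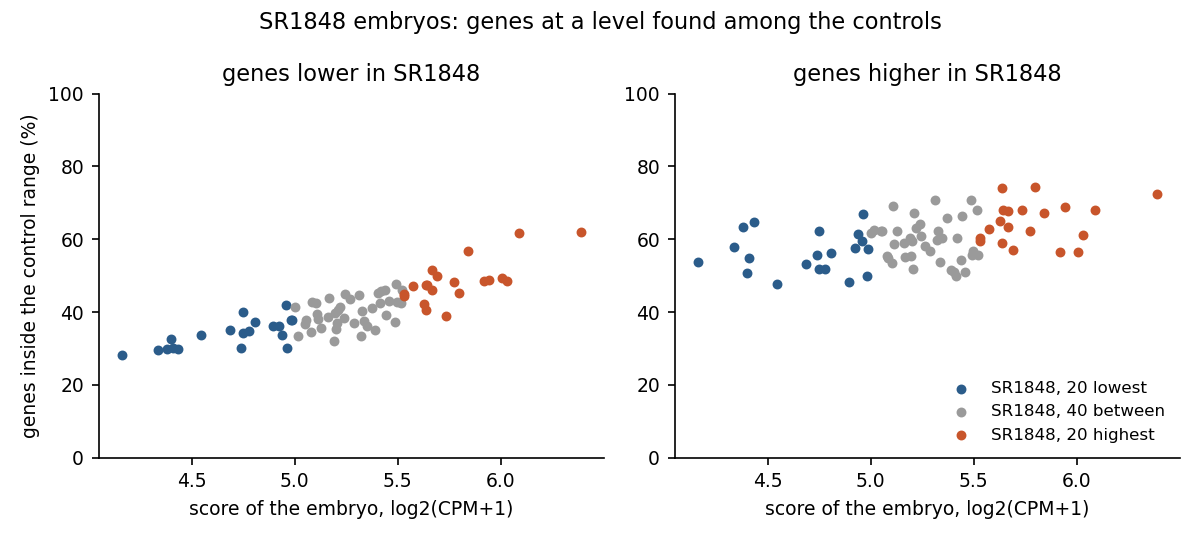
Share of genes whose level in an SR1848 embryo lies inside the range of the 50 controls (y axis, percent) against the embryo's score (x axis, log2(CPM+1)), for 3368 genes lower (left) and 1830 genes higher (right) in the middle set than in controls; each point is 1 embryo. Shares climb with the score on the left, up to 61.97%, and less on the right.

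Other readouts were ranked over the 80 SR1848 embryos in the same way. Of the 20 high embryos, 9 were among the 20 highest SR1848 embryos by ribosomal proteins, 10 by 2-cell genes, 11 by stress response genes and 8 by immediate-early genes. Of the 20 low embryos, 17 were among the 20 lowest by ribosomal proteins, 13 by 2-cell genes and 11 by stress response genes. By oocyte transcripts, 9 high embryos and 1 low embryo were among the 20 lowest, but among the 20 highest were 3 high and 4 low embryos, so that readout did not set the low embryos apart at its upper end. By total counts 2 high and 6 low embryos were among the 20 deepest, and 6 of each among the 20 shallowest. Embryos numbered 1 to 40 made up 10 of the 20 in each set. B2 repeats, an element family active in early embryos, had medians of 140 CPM in the low, 166 in the middle and 209.7 in the high set and 56.9 CPM in controls.

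The 50 controls, which played no part in the ranking, allowed a test of which genes go with the score. Their scores spanned 1.05 units. With edgeR, 900 of 14560 genes (6.18%) had a positive slope on the score and 1216 (8.35%) a negative slope at an adjusted p under 0.05, and the median slope was -0.12 log2 per unit of score. Ribosomal proteins had 50 of 81 genes with a positive slope (median 0.83), ribosome biogenesis 40 of 96 (median 0.70), translation initiation 17 of 44 (median 0.57), proteasome 16 of 40 (median 0.62) and oxidative phosphorylation 20 of 77 (median 0.60, 1 negative). Oocyte transcripts had 27 of 55 negative and 1 positive (median -1.05). Without the 2 controls farthest from the median score, 690 positive and 697 negative genes remained.

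Among the 8 smallest p-values in each direction, Cnbp, a nucleic acid binding protein of translation control, had a slope of 1.46 (SE 0.16, adjusted p = 3.0e-08) and Psmd14, the deubiquitinase of the proteasome lid, of 1.83 (SE 0.22, adjusted p = 8.7e-08, both edgeR). Tiparp, an ADP-ribosyltransferase, had a slope of -2.24 (SE 0.30, adjusted p = 5.3e-07, edgeR). In the SR1848 embryos Cnbp had medians of 49.5, 77.3 and 117 CPM in the low, middle and high sets and Tiparp 7321, 4470.0 and 3910.2 CPM. All 16 genes so named differed between high and low in the direction of their slope in the controls, but by unequal amounts. Ufd1 had a difference of 0.26 beside a slope of 2.43. The first negative genes by p-value, Rbm38 (slope -2.29) and Smim14 (slope -2.23), differed by -0.20 and -0.21, and Ezhip (slope -2.49) by -0.04. Dppa4 had a slope of 0.86 (SE 0.21, adjusted p = 0.0031), Glrx3 of 1.09 (SE 0.22, adjusted p = 0.00025) and Rps23 of 1.21 (SE 0.22, adjusted p = 7.2e-05), all by edgeR. Dppa2 also had a positive slope, of 1.06 (SE 0.28, adjusted p = 0.0055, edgeR), where its level in the SR1848 embryos was lower in the high set. The slope of Nr5a2 was 0.35 (SE 0.25) and did not pass (adjusted p = 0.39, edgeR).

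Genes with a slope in the controls were then looked up in the SR1848 embryos. Of 870 positive genes described, 350 (40.2%) were at least 2-fold higher in the high set and 4 lower, with a median of 0.82. Of 1174 negative genes, 166 (14.1%) were at least 2-fold lower and 56 higher, with a median of -0.53. Of 8505 genes that did not pass, 19.4% were higher, about the share of all genes. Immediate-early genes, which were higher in the high set, had 7 of 21 negative and no positive slopes in controls (median -1.70), against 8.35% negative and 6.18% positive over all genes. The 2-cell genes had 3 negative and 1 positive of 27, near those shares, with a median of -0.87. The difference between the controls and the SR1848 embryos was not tested.

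**Figure D5:**
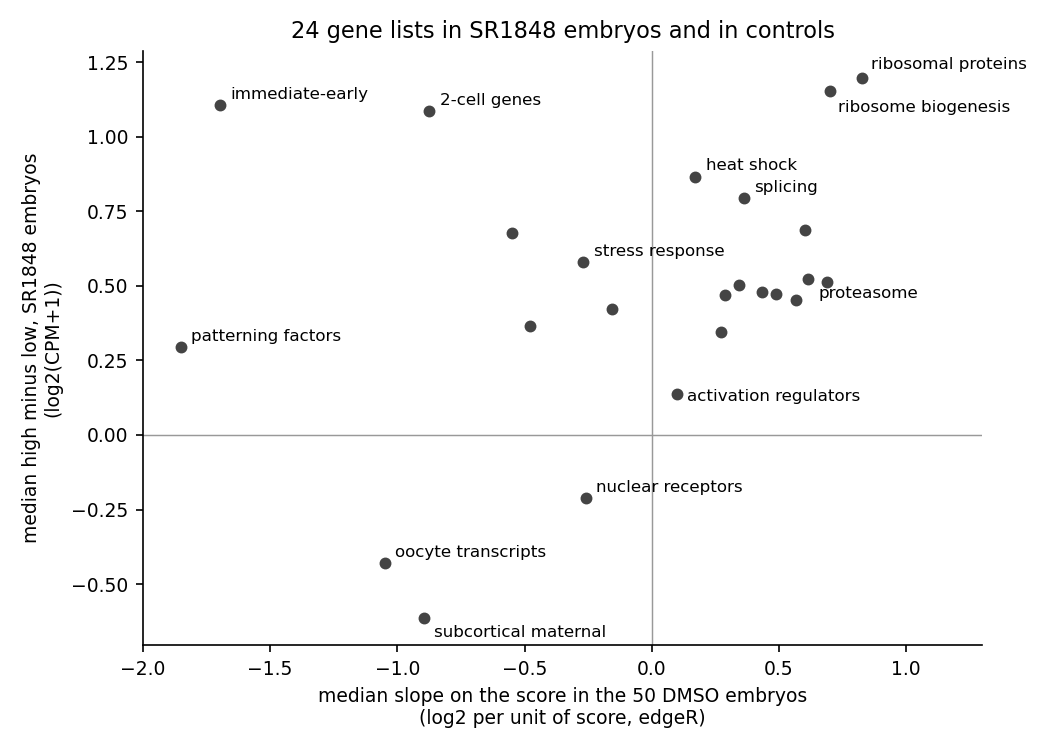
Each point is 1 of 24 gene lists, with its median slope on the score in the 50 DMSO embryos (x axis, log2 per unit of score) and its median difference between high and low SR1848 embryos (y axis, log2(CPM+1)). Ribosomal protein and ribosome biogenesis lists are positive on both axes and oocyte transcripts negative on both, while immediate-early and 2-cell genes are negative in controls (-1.70 and -0.87) and positive in SR1848 embryos (1.11 and 1.09). Immediate-early levels were low in controls.

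Among 6 library measures tested against the score in the 50 controls, the share of counts on oocyte transcripts fell as the score rose (Pearson r = -0.55, adjusted permutation p = 0.00024, Spearman rho = -0.52, adjusted p = 0.0012), and without the 2 farthest embryos r was -0.60. The share on the 100 most abundant genes had r = -0.35 (adjusted permutation p = 0.038) but rho = -0.28 (adjusted p = 0.0998). Total counts (r = -0.17, adjusted permutation p = 0.30), mitochondrially encoded share (r = -0.0068, adjusted p = 0.96) and Nr5a2 (r = 0.23, adjusted p = 0.17) did not pass. Genes detected after thinning, in 49 controls, had r = -0.25 (adjusted permutation p = 0.17) and rho = -0.35 (adjusted p = 0.039).

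Markers of other cells were mixed: the defining genes were at or near 0, but single members were not. Of the 15 cumulus markers none passed the level filter, and the medians of Has2, Ptx3, Fshr, Amh and Foxl2 were 0 in every set, with no embryo above 5.53 CPM in any. The summed cumulus list had medians of 9.28, 13.3, 15.9 and 6.48 CPM in the low, middle and high sets and controls, with 1 middle embryo at 442 CPM. The protamine genes Prm1 and Prm2 and the transition protein genes Tnp1 and Tnp2 reached 8.54 CPM at most. The summed sperm list nevertheless had medians of 601, 477, 367 and 229 CPM in the low, middle and high sets and controls, nearly all of it from Odf2, a centrosome and sperm tail protein (598, 474, 366 and 227 CPM). Of the blood markers Hbb-bs was at 0 in 129 of 130 embryos, while Hba-a1 had medians of 43.2, 82.0 and 65.3 CPM in the SR1848 sets and 12.4 CPM in controls, and Hba-a2 91.8, 116, 140.4 and 20.3 CPM. The part of these transcripts in the differences was not tested. Transcripts of the 2-cell stage (Zscan4d, Zfp352, Tcstv3 and Obox6) and of the oocyte (Gdf9, Bmp15, Zp3, Zp2, Ooep and Nlrp5) were present in all 130 embryos, as the label of a 2-cell embryo has it.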

How the data were processed

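RNA of 130 single embryos was measured, and titles gave the groups. The submitters' processing notes name kallisto 0.46.1, Trim Galore 0.6.2, DESeq2 1.32.0 and R 3.5.1, and the builds mm10 and hg19 with no role. The authors deposited kallisto estimated counts for 119358 transcript entries, of which 28.5% are not whole. The other annotation used, per the file headers, is the gene symbol of each transcript in the authors' comparison table. None of that table's statistics were read, and the deposited normalised table was not used. Gene positions come from GENCODE M21 on GRCm38, since gene coordinates in the deposited table differ from it.

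Estimated counts were summed per symbol (35973 symbols). Entries without a symbol held 0.96% of counts and stayed out. Descriptions used log2(CPM+1) on total counts, with a pseudocount of 1 CPM and a mean of at least 5 CPM over all embryos. Rounded counts were tested with edgeR 4.0.16 (R 4.3.3): TMM, filterByExpr, glmQLFit, two-sided, Benjamini-Hochberg over all genes tested. SEs are the absolute log2 change over the root of F. Relations used 100000 permutations. Thinning drew every library to 3273726 counts and left out 7. Over 4385 pairs of libraries of 1 group, none agreed within sampling noise. Fits and descriptions were tested on simulated data. High against low was not tested, since measured values chose the embryos. The members and gene lists were chosen with earlier results of these data known. Named genes were the 10 score genes, Nr5a2, Dppa2 and Dppa4, the 12 largest differences each way at a mean of at least 20 CPM (Gm, Rik and unnamed genes left out, also among slopes), 3 members with the largest difference and the most abundant member of each list, and the 8 smallest slope p-values each way in controls. Alternatives covered scaling, filters, pseudocount, set size, score genes, depth, limma-voom 3.58.1 and DESeq2 1.42.0. Without molecular identifiers a count need not stand for 1 separate molecule.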

Additional observations from a re-analysis of the deposited data

How the results depend on the processing

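The ranking was repeated under 14 alternatives, of which 3 (embryos with few genes detected left out, embryos numbered 1 to 40 and embryos numbered 41 to 80) were chosen after seeing the data. The counts of genes at least 2-fold higher and lower in the high set moved by over 1.5 times as follows. With 10 embryos at each end 1009 were lower, with the upper and lower 40 the counts were 610 and 55, scaled to oocyte transcripts 6920 and 81, with the score of the 5 genes outside ribosome assembly 304 lower, at a mean of at least 20 CPM 1309 and 262, with any count 860 lower, with a pseudocount of 5 1246 and 240, and in embryos 41 to 80 1068 lower. TMM scaling, the 5 ribosome genes as score, thinning and leaving out shallow libraries kept both counts within 1.5 times. Among the named genes at least 2-fold lower in the high set, these turned to higher when scaled to oocyte transcripts: Aco1 0.43, Ap3s1 0.25, E2f5 0.86, Med30 0.85, Mff 0.26, Nr2c1 0.26, Pls1 0.093 and Tram1 0.18. That follows from the scaling, which moved the median of all genes to 1.38. Genes with smaller falls, such as Dppa2, were not counted for such a turn. Of the 24 list medians, 22 moved by over 1 SD under it, and none under TMM. Slope counts in controls stayed within 1.5 times except for 697 negative genes without the 2 farthest embryos, and the relation of the score with genes detected passed there (r = -0.39). With no filter, SR1848 against DMSO gave 10165 higher and 7424 lower genes, over 29914 tested. Embryo numbers are shared by 50 SR1848 and control embryos but did not pair them: 2 of 50 pairs correlated above 0.1 and 1 embryo correlated best with its own number. With the number as a replicate block, edgeR gave 5418 higher and 5021 lower genes and limma-voom 5838 and 4955, within 1.5 times of 6008 and 4807.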

Other observations

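Gene groups moved unequally along the ranking. Over all genes, 19.6% were at least 2-fold higher in the high set and 5.09% at least 2-fold lower. DNA replication genes had 14 of 44 members at least 2-fold higher in the high set and 2 lower, with a median of 0.50, and 4 of 20 high embryos but no low embryo lay in the control range of the list's mean level. Genes of p53 and apoptosis had 5 of 15 (33.3%) at least 2-fold higher and none lower (median 0.68). Pluripotency genes had 7 of 20 (35%) higher and none lower, and 18 of 20 high and 10 of 20 low embryos in the control range. Of 21 nuclear receptors described, Nr5a2 among them, 2 were at least 2-fold higher (Nr5a2 and Nr2c2) and 1 lower (Nr2c1), with a median of -0.21. The 9.52% higher lay below the share of all genes. Nr2c2, an orphan receptor, had medians of 6.77 CPM in the low set, 25.6 CPM in the high set and 227 CPM in controls. Mitochondrially encoded genes were higher by a median of 0.42 in all 13 members, none by 2-fold, and turned to 0.55 below the median of all genes when scaled to oocyte transcripts.

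Some transcripts nearly absent from controls were highest in the high set. Lhx6, a LIM homeobox factor, had medians of 19.4, 45.4 and 63.8 CPM in the low, middle and high sets, was under 1 CPM in 35 of 50 controls, and no high embryo lay in the control range. Herpud1, of endoplasmic reticulum protein quality control, had medians of 5.47, 24.9 and 40.4 CPM, and was under 1 CPM in 35 controls.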
